A study of Mus musculus with 208 samples.

Results

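The 9 long noncoding RNA genes described here were followed through nuclear RNA libraries of the mouse brain: Malat1, Neat1, Miat, Meg3, Rian, Mirg, Snhg11, Snhg14 and Peg13. They were taken by symbol, 9 of the 46403 genes in the tables as genes known for retention in the nucleus or for imprinting. The series held 208 libraries from C57BL/6NTac wild-type mice of both sexes, each made from neuronal nuclei (sorted for NeuN, the product of Rbfox3) of 1 region of 1 animal. The region was hypothalamus (51 libraries), hippocampus (55), prefrontal cortex (PFC, 48) or striatum (54). A minipump gave the dams morphine (10 mg/kg daily) or saline, newborns moved to drug-naive foster mothers, and pups were injected with morphine (10 mg/kg) or saline 2 times a day from postnatal day 1 to 14. Adults then received lipopolysaccharide (LPS) or saline, and tissue was taken 2 h later. SAL-SAL mice therefore had saline at both stages, MOR-SAL perinatal morphine and adult saline, SAL-LPS perinatal saline and adult LPS, and MOR-LPS perinatal morphine and adult LPS. The labels give each library a replicate number in 2 parts. The 71 full numbers each kept 1 condition and 1 sex in every region, and are taken here as animals. The first part, called the prefix below, took 18 values, 10 in exposed and 8 in control mice with 0 in both. The labels do not say what the prefix stands for. It is not taken as the litter: the study's methods give another number of litters, and which animals shared one is not given in the sources used here. Exposure was given to dams, so a difference between exposures and a difference between litters cannot be told apart.

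Long noncoding RNAs are thought to act as RNA rather than through a protein. Malat1 resides in nuclear speckles, the stores of splicing factors, and the long form of Neat1 builds paraspeckles, bodies that hold RNA and RNA-binding proteins. Miat, also called Gomafu, forms separate nuclear domains in neurons. Meg3, Rian and Mirg are read in 1 direction from the maternal chromosome of the imprinted Dlk1-Dio3 domain and carry clusters of microRNAs and C/D box small nucleolar RNAs. Snhg14 is a very long paternal transcript of the Prader-Willi and Angelman region that carries Snord116 copies and runs antisense to Ube3a. Snhg11 is a neuronal host of a small nucleolar RNA, although the GENCODE annotation used here types its gene as protein coding, and Peg13 is an imprinted transcript inside an intron of Trappc9.

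The 3' ends of the nuclear body RNAs are shown first because libraries of polyA RNA were prepared, and the long Neat1 form and Malat1 end in a genomic A-rich stretch that folds with U-rich stretches rather than in an added polyA tail. Neat1 (GRCm38, chr19:5824708-5845478, minus strand) is a single exon of 20771 bases, and Malat1 (chr19:5795690-5802672, minus strand) a single exon of 6983 bases. The last 110 bases of the long Neat1 transcript (chr19:5824708-5824817) and the same length at the end of the Malat1 triple helix element (chr19:5795982-5796091) are given in DNA letters with the U-rich and A-rich tracts in capitals.
Neat1 long form: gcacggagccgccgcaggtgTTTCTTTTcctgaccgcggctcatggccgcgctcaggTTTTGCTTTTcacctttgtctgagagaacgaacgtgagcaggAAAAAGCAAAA
Malat1: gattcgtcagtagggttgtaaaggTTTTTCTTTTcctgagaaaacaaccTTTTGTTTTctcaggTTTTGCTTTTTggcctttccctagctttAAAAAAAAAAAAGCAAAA
The short Neat1 form of 3004 bases stops at a polyadenylation signal instead, in capitals in its last 60 bases (chr19:5842307-5842366, minus strand).
Neat1 short form: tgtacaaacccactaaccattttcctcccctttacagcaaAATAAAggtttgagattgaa
The tables count both forms as 1 gene, so every Neat1 value below is for the gene and not for either form.

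The second set of sequences shows what the other members are named for. Miat (chr5:112213228-112229395, minus strand) repeats ACTAAC, the letters of a splicing branch point: they occurred 11 times on the given strand in the 9163 bases of its transcript Miat-205, and 4 of them, in capitals, fell in the 150 bases at chr5:112217319-112217468.
Miat: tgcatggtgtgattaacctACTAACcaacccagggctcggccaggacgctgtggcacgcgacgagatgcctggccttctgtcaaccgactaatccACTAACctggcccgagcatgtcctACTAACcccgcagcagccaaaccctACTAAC
Snhg14 (chr7:59307924-59975759, minus strand) spans 667836 bases, of which 26093 are exonic. The Snord116 small nucleolar RNA that it hosts is shown by 1 annotated copy (chr7:59894620-59894713, minus strand) with the C and D boxes in capitals; 17 annotated copies had only 4 distinct sequences.
Snord116: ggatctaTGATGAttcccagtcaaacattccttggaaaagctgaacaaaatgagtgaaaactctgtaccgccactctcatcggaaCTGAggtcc
Meg3 (chr12:109541001-109571726), Rian (chr12:109603940-109661716) and Mirg (chr12:109729764-109749460) follow each other on the plus strand. From the start of Meg3 to the end of Mirg, RefSeq (GRCm38.p6) lists 106 mature microRNAs of 57 genes, 26 of them inside Mirg, 6 inside Rian and 3 inside Meg3. Their seeds (bases 2 to 8, in capitals) were mostly unlike: there were 97 different seeds, 9 were shared, and none by more than 2 entries. A pair inside Mirg that shares a seed and the neural miR-134 are shown.
miR-453: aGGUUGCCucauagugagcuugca
miR-496a-5p: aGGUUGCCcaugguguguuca
miR-134-5p: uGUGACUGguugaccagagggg
Of the 52 microRNA genes of this stretch that were listed, 38 had any count in hypothalamus and 27 in each of the other regions, and the 2 Snord116 genes in the tables had 2 reads in all in the hypothalamus and 0 elsewhere. Reads over a microRNA gene can come from the long transcript around it and cannot be told apart from it, so only the long hosts are described below.

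Together the members took a large share of the RNA. Their summed share of a library's counts had a median of 3.41% in hypothalamus (2.09% to 4.6%), 1.39% in hippocampus (0.595% to 3.41%), 1.27% in PFC (0.675% to 2.03%) and 1.43% in striatum (0.858% to 2.08%). Library totals ran from 7673 to 92945090 counts, with medians of 5543589 in hypothalamus, 9184251 in hippocampus, 9667628 in PFC and 10849923 in striatum. The lowest was a SAL-LPS hypothalamus library, and 8 libraries (3 in hypothalamus, 2 in hippocampus, 3 in PFC) lay under 0.5 of their region's median. The sort label was checked against markers. All 10 neuronal markers were counted in hypothalamus and 8 in the other tables, but markers of glia were read in every region: summed oligodendrocyte markers had medians of 399 normalized CPM (counts scaled to library size) in hypothalamus, 384 in hippocampus, 349.5 in PFC and 410.4 in striatum, and single libraries reached 7109, 3532, 5059 and 4704. Rbfox3 had a median of 137 deposited CPM in hypothalamus against 1315 in hippocampus, 2190 in PFC and 1173 in striatum.

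**Figure D1:**
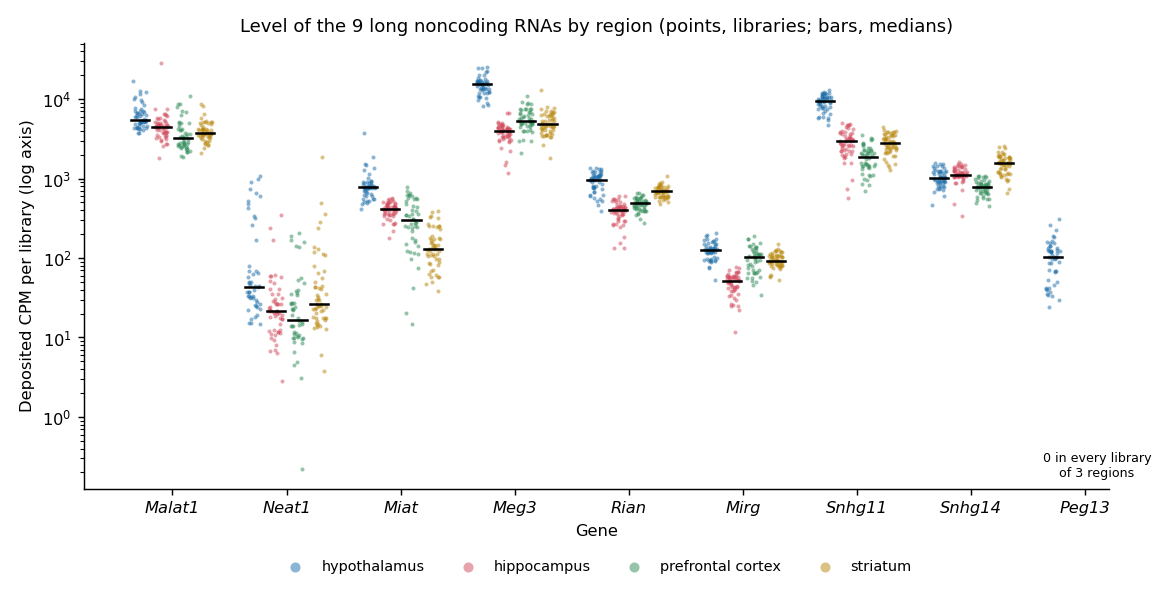
Deposited CPM of each gene (horizontal axis) in every library, on a log axis, coloured by region, with the median as a black bar. Meg3, Snhg11 and Malat1 lie above 1000 CPM in most libraries, Neat1 has the widest spread (0.224 to 206 CPM in PFC alone), and Peg13 has values in hypothalamus only.

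Malat1 was the most abundant gene of the nuclear body group. Its median deposited level was 5402 CPM in hypothalamus, 4490 in hippocampus, 3202 in PFC and 3725 in striatum, which placed it 6th, 5th, 9th and 12th of all genes. Per kilobase of exon these are 774, 643, 459 and 533 CPM. Neat1 stood far lower, with medians of 42.9 CPM in hypothalamus, 21.2 in hippocampus, 16.8 in PFC and 26.5 in striatum, or 2.07, 1.02, 0.807 and 1.28 CPM per kilobase. Its highest libraries, however, had 1065, 346, 206 and 1849 CPM. Miat was highest in hypothalamus (782 CPM), followed by hippocampus (416), PFC (299) and striatum (132). Its lowest library was in PFC at 14.7 CPM.

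In the Dlk1-Dio3 group the first gene was by far the most abundant. Meg3 had a median of 15290 CPM in hypothalamus, 4013 in hippocampus, 5310 in PFC and 4850 in striatum, and ranked 3rd, 7th, 3rd and 4th among all genes. Per kilobase its medians were 846, 222, 294 and 268 CPM, against 53.0, 21.9, 26.7 and 38.0 for Rian and 17.2, 7.05, 14.0 and 12.7 for Mirg. The order Meg3, Rian, Mirg was thus the order of the genes along the chromosome in each region. Levels of the 3 genes varied together across libraries. Pearson's r of log2(normalized CPM + 1) between Meg3 and Mirg was 0.721 in hypothalamus (48 libraries), 0.78 in hippocampus (53), 0.647 in PFC (45) and 0.604 in striatum (54), and between Rian and Mirg 0.657, 0.735, 0.423 and 0.749. These are descriptions, and the points share conditions and the scaling of each library. They are also not particular to the domain: Rian and Snhg14, of different chromosomes, had an r of 0.742, 0.741, 0.636 and 0.747 in the same order of regions, and Meg3 and Ube3a one of 0.68, 0.325, 0.619 and 0.88. Rtl1, a paternally expressed protein gene of the domain, had an r of 0.752 with Meg3 in hippocampus and was among its 3 most similar genes there.

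The small nucleolar RNA hosts differed in pattern. Snhg11 had medians of 9522 CPM in hypothalamus, 2935 in hippocampus, 1865 in PFC and 2766 in striatum, and its 1118 CPM per kilobase in hypothalamus was above that of Malat1 and Meg3. Snhg14 was the one member with its highest median outside hypothalamus: 1572 CPM in striatum against 1118 in hippocampus, 1007 in hypothalamus and 780 in PFC. Its exons overlap exons on the opposite strand over 1803 bases, and whether the counting used strand is not given in the sources used here, so reads of the overlap cannot be told apart; the same holds for 2260 bases of Miat, 1228 of Meg3 and 453 of Malat1. Across libraries Snhg14 and Ube3a, which lies opposite to it, had an r of 0.83 in hypothalamus, where Ube3a was the most similar of 10803 genes, and of 0.646 in hippocampus, 0.624 in PFC and 0.86 in striatum.

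Peg13 (chr15:72805600-72810324, minus strand, 4725 bases in an intron) was read in 1 table. In hypothalamus it had a median of 103 CPM, a highest value of 309 CPM and 0 in 1 of 51 libraries, the shallowest. It was listed at 0 in all 55 hippocampus, 48 PFC and 54 striatum libraries. It was not alone in this: of the 12485 genes whose hypothalamus median reached 5 CPM, 1480 had no count in any hippocampus, PFC or striatum library, while of the 9731 genes whose median reached 5 CPM in each of the other 3 regions, 6 had no count in any hypothalamus library. Trappc9, its host, had medians of 91.4, 273, 291 and 303 CPM in hypothalamus, hippocampus, PFC and striatum, and Kcnk9, its imprinted neighbour, 29.9, 66.6, 54.1 and 23.9 CPM, so the locus was read everywhere. The tables were made separately, and a region and its table cannot be told apart, so no fold change between regions is given for Peg13.

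Whether the regions differ was tested in the SAL-SAL libraries alone (11 of hypothalamus, 13 of hippocampus, 10 of PFC and 13 of striatum), with raw counts joined over the 19356 genes measured in each region, TMM scaling and edgeR's quasi-likelihood test with sex as a covariate; a call is an adjusted p (Benjamini-Hochberg over all genes of a pair) under 0.05. Of the 48 tests of 8 members, 22 were called. Hypothalamus differed from hippocampus in 5 of 8 members (38.2% of all genes were called), from PFC in 5 (40.4%) and from striatum in 5 (36.4%). Hippocampus and PFC differed in 2 (13.7%), hippocampus and striatum in 3 (9.31%) and PFC and striatum in 2 (13.2%). With 8 members a pair, these counts are read against tables in which a large part of all genes was called. The ranges of the groups overlapped in each of the 48 tests.

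Meg3, Snhg11 and Neat1 were higher in hypothalamus than in each other region, and region and table cannot be told apart in any of these tests. In normalized CPM of the joined tables, Meg3 ran from 6656 through a median of 13950 to 29300 in hypothalamus and from 1236 through 3802 to 6851 in hippocampus. Its log2 difference was 1.95 ± 0.26 (SE, edgeR adjusted p = 1.48e-08), and it was 1.36 against PFC and 1.62 against striatum. Snhg11 had 3006, 8772 and 9718 (lowest, median, highest) in hypothalamus and 1131, 1485 and 3091 in PFC, with 2.03 ± 0.24 as log2 difference (edgeR adjusted p = 7.20e-10), and PFC was also lower than hippocampus and striatum. For Neat1 the medians were 33.1 in hypothalamus and 12.0 in hippocampus, a log2 difference of 2.34 ± 0.52 (edgeR adjusted p = 0.000271); the highest of the hypothalamus libraries had 550.3 and the highest of hippocampus 28.9. The fitted 5.05-fold is above the ratio of the medians; 3 SAL-SAL hypothalamus libraries, all of females, exceeded 100 CPM in the table of their own region (117, 592.5 and 673), and summed oligodendrocyte markers reached 7109 there against 1230 in SAL-SAL hippocampus, whose part was not tested. Rian was higher in hypothalamus than in hippocampus (1.07 ± 0.20) and PFC (0.59 ± 0.21) and did not pass the test against striatum (0.19 ± 0.20, edgeR adjusted p = 0.484). Mirg was lowest in hippocampus, below hypothalamus by 1.3 ± 0.23, PFC by 0.87 ± 0.23 and striatum by 0.99 ± 0.22 on the log2 scale.

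Miat and Snhg14 separated striatum from some of the other regions, but not from all, in opposite directions. Miat had 43.9, 130 and 432 normalized CPM (lowest, median, highest) in striatum and 261, 646 and 885 in hypothalamus, and hypothalamus was higher by 1.87 ± 0.33 (edgeR adjusted p = 8.34e-06), hippocampus by 1.22 ± 0.32 (edgeR adjusted p = 0.00912). Snhg14 had 605, 1601 and 2262 in striatum and 586, 800 and 1803 in hypothalamus, with a log2 difference of -0.74 ± 0.20 for hypothalamus against striatum (edgeR adjusted p = 0.00224) and -0.94 ± 0.20 for PFC against striatum (edgeR adjusted p = 0.00152). Miat in PFC against striatum (0.87 ± 0.34, edgeR adjusted p = 0.0773) and Snhg14 in hippocampus against striatum (-0.43 ± 0.19, 0.142) did not pass. Miat was also higher in hypothalamus than in PFC (0.99 ± 0.36, edgeR adjusted p = 0.0227). Malat1 passed in 0 of 6 pairs: its log2 differences ran from -0.14 to 0.42, but scaling by library size alone called hypothalamus higher than hippocampus (0.65), PFC (0.73) and striatum (0.75), so its order between regions depends on the scaling. That scaling called 31 of the 48 tests and DESeq2 27, and no call changed its sign. With the animal as a replicate block, since many animals gave several regions, 19 of the 22 calls were kept; those lost were Neat1 in hypothalamus against striatum (0.98, edgeR adjusted p = 0.0907) and Snhg11 in hippocampus against PFC (0.74, 0.0513) and in PFC against striatum (-0.68, 0.0739).

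For the conditions, each region was fitted by itself with the 4 conditions and sex in 1 edgeR model (28859 genes tested in hypothalamus, 22076 in hippocampus, 21729 in PFC and 23426 in striatum), and levels are given as TMM-normalized CPM. Over 6 comparisons and 4 regions there were 198 tests of members, of which 7 passed: 5 of Neat1 and 2 of Malat1. The other 7 members passed in none. On simulated hypothalamus data this edgeR fit made more false calls than its threshold allows, and more than DESeq2 or limma did, so an adjusted p from it can be too small. DESeq2 and edgeR on counts summed over prefixes also made more false calls there than the threshold allows, so the same holds for their adjusted p. Of the 7 calls, DESeq2 made 6 (all but Malat1 in hippocampus), limma on log2(CPM + 1) made 3 and limma on log2(CPM + 0.1) made 2, each of them for Neat1. Of the 6 calls between conditions, limma with a correlation within prefixes made 1 (Neat1 in hypothalamus, MOR-LPS against MOR-SAL) and edgeR on counts summed over prefixes 2 (the same and Neat1 in striatum), so both Malat1 calls, the Neat1 interaction and Neat1 in hippocampus were lost in both. In bulk nuclei, fewer cells of a type and less RNA per cell cannot be told apart, which applies to each difference below.

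**Figure D2:**
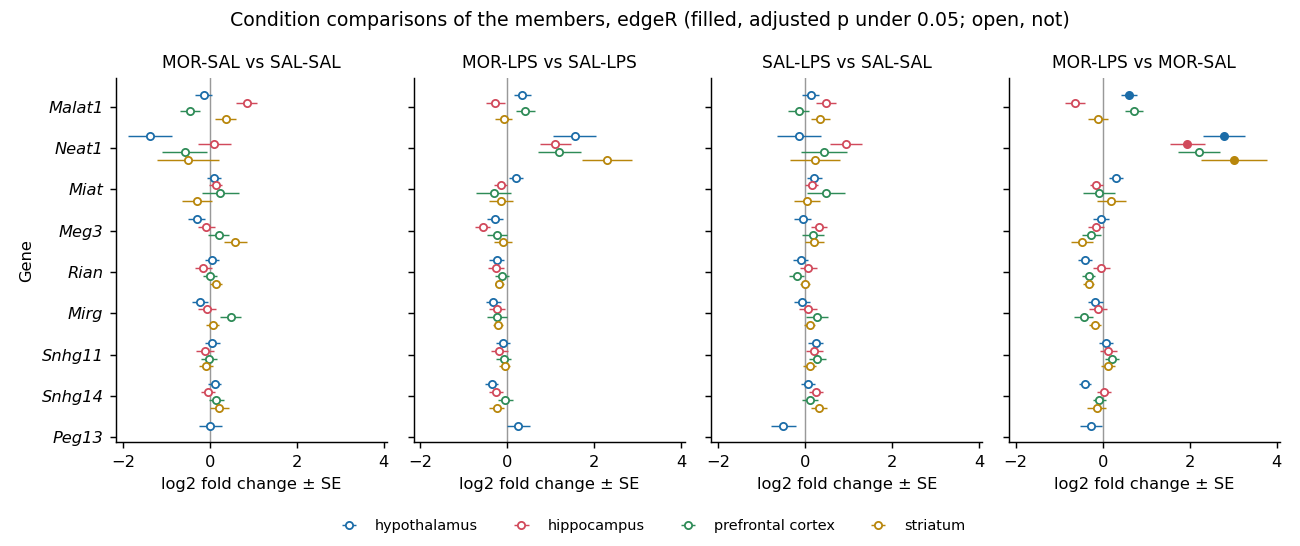
Log2 fold change with its standard error (horizontal axis) of each member (vertical axis) in 4 comparisons, coloured by region; filled points passed the edgeR test at an adjusted p under 0.05. The passing points are Neat1 in hypothalamus (2.79), hippocampus (1.95) and striatum (3.03) and Malat1 in hypothalamus (0.61), each in MOR-LPS against MOR-SAL.

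Neat1 was the member that changed most. The question of the comparison of MOR-LPS with MOR-SAL is what LPS does in mice exposed to morphine. In hypothalamus Neat1 had 16.0, 33.4 and 54.4 normalized CPM (lowest, median, highest) in 14 MOR-SAL libraries and 21.8, 199.6 and 975 in 14 MOR-LPS libraries. The groups overlapped at the low end, and 10 of the 14 MOR-LPS libraries exceeded each MOR-SAL library. The log2 fold change was 2.79 ± 0.48 (edgeR adjusted p = 0.000288), and 2 of 9 members (Neat1 and Malat1) were called where 6.27% of all genes were. In hippocampus the 12 MOR-SAL libraries had 6.75, 17.2 and 27.6 and the 16 MOR-LPS libraries 10.1, 30.9 and 289. The ranges overlapped, with 8 of 16 MOR-LPS libraries above each MOR-SAL library, and the log2 fold change was 1.95 ± 0.40 (edgeR adjusted p = 0.0223), the only call among 8 members (0.467% of all genes). In striatum the 8 MOR-SAL libraries had 4.27, 23.2 and 46.2 and the 18 MOR-LPS libraries 11.0, 66.7 and 1723. There 10 of 18 libraries lay above each MOR-SAL library and the log2 fold change was 3.03 ± 0.76 (edgeR adjusted p = 0.0329), the only call among 8 members (1.39%). In PFC the medians were 11.6 (3.02 to 29.9, 12 libraries) and 33.0 (5.51 to 181, 16 libraries), and the log2 fold change of 2.21 ± 0.49 did not pass (edgeR adjusted p = 0.0797), where 0 of 8 members and 0.0184% of all genes did; 4 members had an unadjusted p under 0.05, and DESeq2 called Neat1 with 2.24 (DESeq2 adjusted p = 0.00428).

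**Figure D3:**
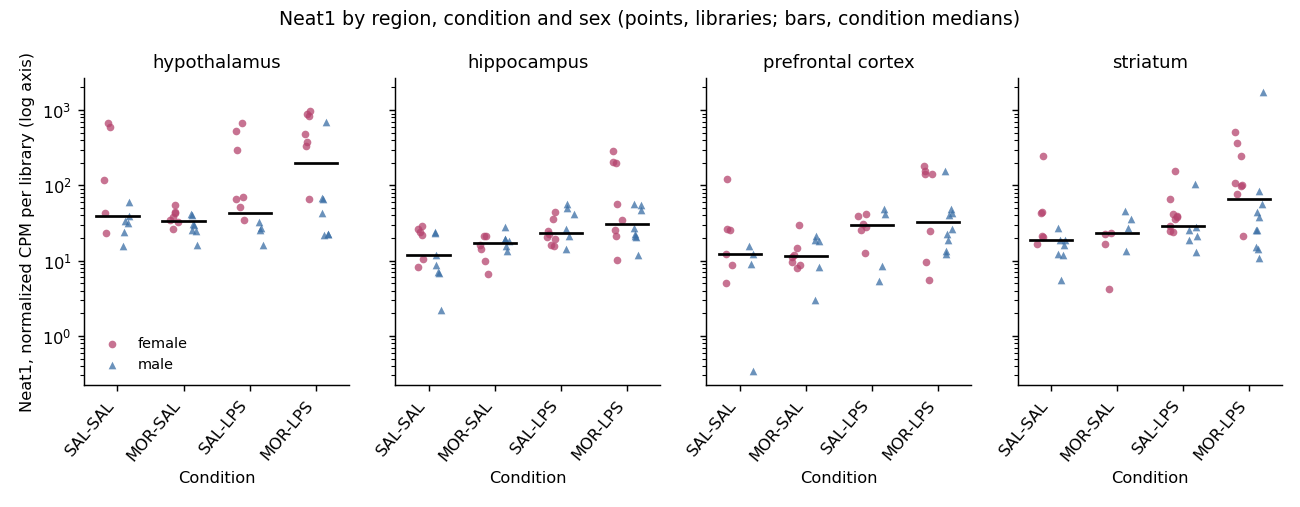
Neat1 in normalized CPM (vertical log axis) in each library by condition, split into females (circles) and males (triangles), with bars at the condition medians, in 4 regions; 1 library at 0 is not drawn. In hypothalamus the MOR-LPS median of 199.6 stands above 33.4 in MOR-SAL, and values above 100 are mostly those of females.

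Single animals weighed on these values. Above 100 normalized CPM were 31 of 208 libraries, from 14 of 71 animals. By animal these were 7 of 21 in MOR-LPS, 0 of 18 in MOR-SAL, 3 of 15 in SAL-SAL and 4 of 17 in SAL-LPS, and by library, of which an animal gave several, 21 of 64, 0 of 46, 5 of 47 and 5 of 51. The 7 MOR-LPS animals were each high in at least 2 regions and were 6 of 9 females and 1 of 12 males. They were gathered in few prefixes: the 6 females were all MOR-LPS animals of prefixes 7 (1 animal), 15 (2) and 16 (3), the male was 1 of 3 of prefix 14, and the females of prefixes 12 and 18 and the other males were not high. High libraries were found in 4 of 10 prefixes in MOR-LPS, 0 of 10 in MOR-SAL, 4 of 8 in SAL-LPS and 2 of 7 in SAL-SAL. Prefixes 7, 15 and 16 also held 2, 3 and 2 MOR-SAL animals, of which 0 were high, and in 8 of 10 prefixes the median over MOR-LPS libraries of all regions was above that over MOR-SAL libraries. One female had 332 CPM in hypothalamus, 208 in hippocampus, 155 in PFC and 246 in striatum. The one male had 690, 22.6, 154 and 1723, so its hippocampus was not high while its striatum was the highest of all. Without the highest library of a region, the log2 fold change was 2.72 in hypothalamus (edgeR adjusted p = 0.000516), 1.66 in hippocampus (0.0589) and 1.54 in striatum (0.156), so the calls in hippocampus and striatum were lost. Leaving out the animals of each prefix in turn gave 2.13 to 3.13 in hypothalamus, called each time, 1.58 to 2.15 in hippocampus, where the call was lost without prefix 7 (1.72) or 15 (1.58), and 1.59 to 3.56 in striatum, where it was lost without prefix 12 (2.99), 14 (1.59), 15 (2.88), 16 (3.04) or 18 (2.98). In PFC the value ran from 1.83 to 2.60 and passed without prefix 5, 6 or 12.

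Markers of glia moved with Neat1. In the same comparison in hypothalamus, 5 of 10 oligodendrocyte markers were higher in MOR-LPS (where 6.27% of all genes were called; median log2 fold change over the list 1.84, against 0.0028 over all genes), 7 of 9 astrocyte markers (2.36) and 4 of 9 microglial markers (0.92), and none of these markers was lower. Their part in the Neat1 result was not tested beyond the fits with marker terms given below. Examples are Mobp, a myelin gene, with 2.43 ± 0.45 (edgeR adjusted p = 0.00064), and Slc1a2, the astrocyte glutamate transporter, with 1.96 ± 0.26 (edgeR adjusted p = 8.32e-06). In striatum, where 1.39% of all genes were called, 5 of 8 tested astrocyte markers (1.80), 1 of 8 microglial (1.44) and 0 of 10 oligodendrocyte markers (1.14) were higher. In hippocampus and PFC 0 markers of these lists passed, but all 10 oligodendrocyte and 8 of 8 astrocyte markers had positive values, with medians of 0.70 and 0.90 in hippocampus and 1.61 and 1.55 in PFC. The defining markers Gfap and P2ry12 are at 0 throughout the hippocampus, PFC and striatum tables. The summed oligodendrocyte markers ranged from 174 to 4704 normalized CPM over MOR-LPS striatum libraries and from 214 to 1258 over MOR-SAL. In hypothalamus the libraries fell into separate clusters, so no r is given; the 12 libraries with the highest oligodendrocyte sums (754 to 7109) were also the 12 above 100 CPM of Neat1 among the 48 of sufficient depth. In the other regions the r of Neat1 with the summed markers was 0.68 for oligodendrocytes, 0.686 for astrocytes and 0.589 for microglia in striatum (54 libraries), 0.596, 0.568 and 0.577 in PFC (45) and 0.529, 0.593 and 0.654 in hippocampus (53). Without the 2 libraries farthest in marker level it was 0.612, 0.601 and 0.591 in striatum, 0.493, 0.538 and 0.475 in PFC and 0.184, 0.361 and 0.399 in hippocampus. Over the libraries at or under 100 CPM of Neat1 it was 0.153, 0.398 and 0.0512 in striatum (45 libraries). It was 0.0945, 0.202 and 0.201 in PFC (39) and 0.102, 0.194 and 0.227 in hippocampus (50). That cut is made on Neat1 itself and narrows its range. With the oligodendrocyte marker level as a further term, the fold change of Neat1 in MOR-LPS against MOR-SAL was 1.38 in hypothalamus (edgeR adjusted p = 0.00624), 1.37 in hippocampus (0.0395), 1.3 in PFC (0.122) and 1.43 in striatum (0.162) on the log2 scale. With the astrocyte level as well, it was 1.18 (0.0821), 1.15 (0.0516), 1.09 (0.253) and 1.13 (0.225), and none passed.

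**Figure D4:**
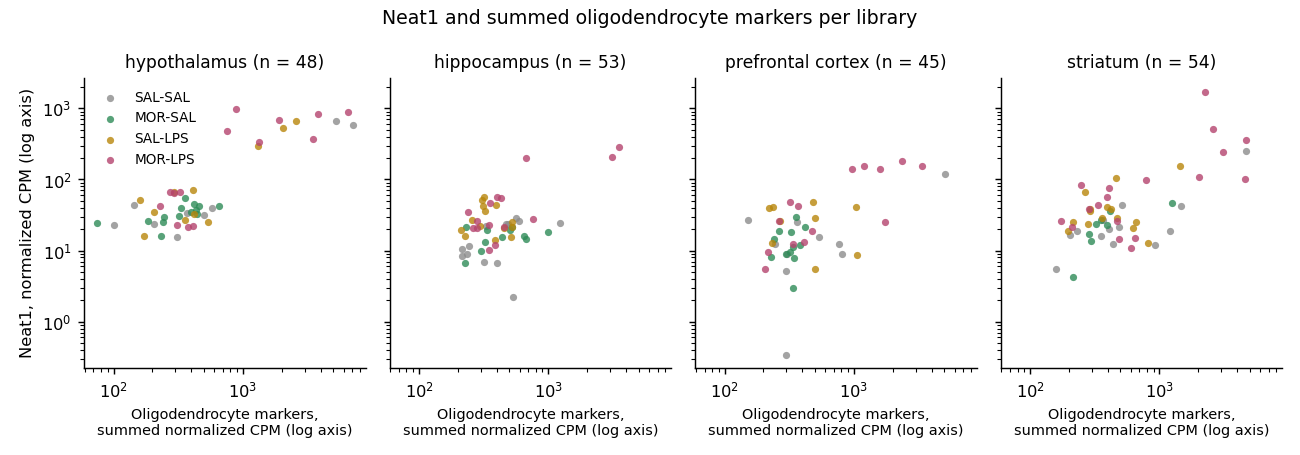
Neat1 against the summed oligodendrocyte markers, both in normalized CPM on log axes, for each library of at least 0.5 of its region's median depth, coloured by condition, in 4 regions. In hypothalamus 12 libraries form a separate upper cloud above 100 CPM of Neat1, and these hold the 12 highest marker sums of the panel (754 to 7109).

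The genes most similar to Neat1 across libraries were ranked by r of log2(normalized CPM + 1) among genes of at least 10 mean CPM. They were Myrf, Hif3a and Arhgef10 in hypothalamus, where no value is given because the libraries form clusters, Zcchc24 (0.783), Rab31 and Ppfibp2 in hippocampus, Creb5 (0.799), Rin2 and Bcl2l1 in PFC, and Bcl2l1 (0.895), Aldh1l1 and Bcas1 in striatum. Myrf is the myelin regulatory factor of oligodendrocytes and Aldh1l1 an astrocyte enzyme. Levels of Neat1 were related between regions of an animal: deviations from the mean of the same condition and sex had an r of 0.699 between hypothalamus and striatum (34 animals), 0.661 between PFC and striatum (32), 0.469 between hypothalamus and PFC (31) and 0.153 to 0.216 for the pairs with hippocampus, on the log2 scale. For Miat it reached 0.464 between hypothalamus and PFC, close to the value of Neat1 there. For Malat1 it was -0.423 between PFC and striatum, and for Meg3 it ran from -0.209 to 0.287.

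Neat1 differed by sex in hypothalamus. The 26 female libraries had 23.2, 68.8 and 975 normalized CPM (lowest, median, highest) and the 25 male libraries 0, 30.0 and 690. The ranges overlapped, with 7 male libraries below each female library, and the log2 difference of males from females was -2.10 ± 0.37 (edgeR adjusted p = 0.000596), the 1 call among 9 members (3.45% of all genes). It passed in each alternative run for it, from -2.62 to -0.92, including those with glial marker levels as terms (-0.98 with oligodendrocyte markers and -0.92 with both). Of the glial markers 9 of 10 for oligodendrocytes, 4 of 9 for astrocytes and 3 of 9 for microglia were also lower in males. Only 1 of the 18 prefixes held both sexes, and the sex difference was not tested against the spread between prefixes. In the other regions 0 of 8 members passed between sexes in the main fit (2.51% of all genes in hippocampus, 0.709% in PFC and 0.841% in striatum), with Neat1 at -0.48 in hippocampus, -0.77 in PFC and -0.47 in striatum. Without the striatum library with the highest Neat1, that of a male, the striatum value was -1.35 ± 0.34 and passed (edgeR adjusted p = 0.0315). Whether the difference is larger in hypothalamus was not tested.

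The interaction asks whether the response to LPS differed between exposures. Neat1 passed in hypothalamus at 2.92 ± 0.68 on the log2 scale (edgeR adjusted p = 0.00873), 1 of 9 members where 3.80% of all genes were called. The parts of it are a rise of 2.79 after LPS in exposed mice and a value of -0.13 ± 0.50 in controls, whose medians were 39.4 in SAL-SAL (15.7 to 673, 11 libraries) and 43.0 in SAL-LPS (0 to 670, 12 libraries). The SAL-SAL group thus already held 3 of 11 libraries above 100 CPM, and so did SAL-LPS with 3 of 12. The 3 SAL-SAL libraries were females, and 1 of them (117 CPM) was a low-depth library of 160755 counts. With the oligodendrocyte marker level as a term the interaction was 1.24 (edgeR adjusted p = 0.0974). In this interaction 5 of 10 oligodendrocyte, 4 of 9 astrocyte, 1 of 9 microglial and 0 of 7 endothelial markers were also higher, and so were 3 of 6 thalamus markers, 4 of which passed with lower levels when MOR-SAL was set against SAL-SAL; the part of the thalamus markers was not tested. In the other regions Neat1 gave 1.00 in hippocampus, 1.77 in PFC and 2.79 in striatum, and none passed (edgeR adjusted p from 0.122 to 0.434); 0 of 8 members were called in PFC (all genes: 1.78%) and in striatum (0.00854%).

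Malat1 passed in 2 tests of opposite sign. In hypothalamus it had 4023, 5393 and 6649 normalized CPM (lowest, median, highest) in MOR-SAL and 4307, 7077 and 15670 in MOR-LPS. Here 8 of 14 MOR-LPS libraries exceeded each MOR-SAL library, and the log2 fold change was 0.61 ± 0.18 (edgeR adjusted p = 0.0293). Without the highest library, which came from the male with the highest striatal Neat1, it was 0.49 (edgeR adjusted p = 0.0830), and without prefix 6, 8, 14 or 16 the call was also lost, at 0.49 to 0.58. With both glial marker levels as terms it was 0.18 (0.819). In hippocampus the interaction of Malat1 was -1.12 ± 0.32 (edgeR adjusted p = 0.0413), 1 of 8 members where 2.35% of all genes were called. The call did not hold without a single MOR-SAL female library at 29010 CPM, in which Malat1 was 2.85% of all counts. The next MOR-SAL library had 8154, the median was 4561, and without the high library the interaction was -0.61 (edgeR adjusted p = 0.218). Leaving out each prefix gave -1.30 to -0.70 and lost the call in 12 of 18 cases (prefixes 1 to 3, 5 to 12 and 17). In PFC the interaction had the other sign, 0.86 ± 0.31 (edgeR adjusted p = 0.164).

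**Figure D5:**
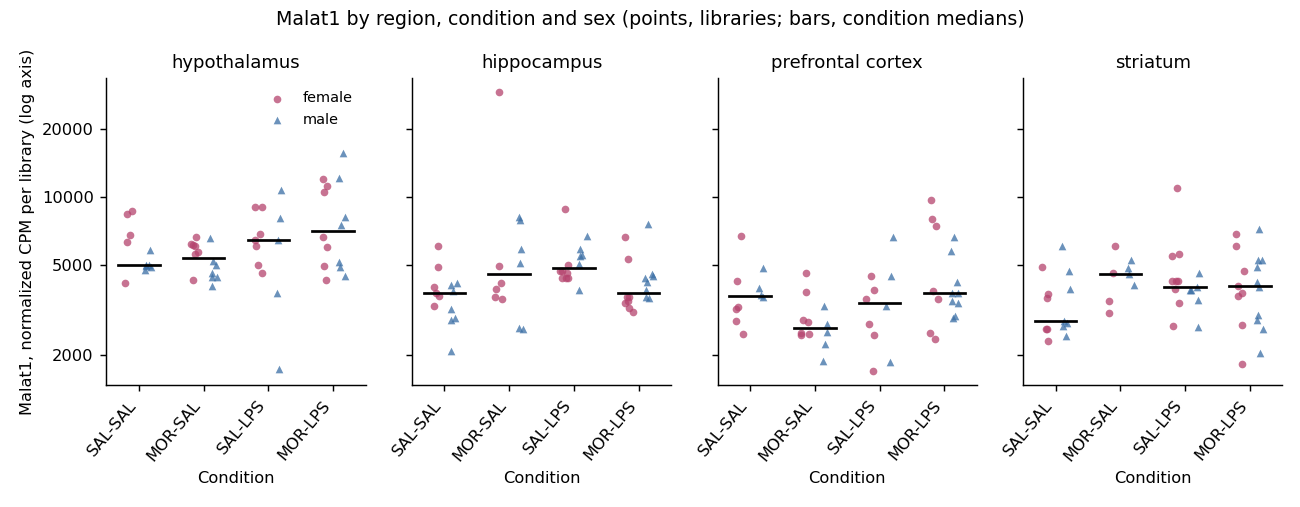
Malat1 in normalized CPM (vertical log axis) in each library by condition, females as circles and males as triangles, with bars at the condition medians, in 4 regions. One hippocampus MOR-SAL library at 29010 stands apart from the other values of its group, which end at 8154, and the hypothalamus MOR-LPS median is 7077 against 5393 in MOR-SAL.

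The 3 remaining comparisons called no member in the main edgeR fit. Some other fits called 1 or 2 members, as given in the last section. Perinatal morphine at adult saline (MOR-SAL against SAL-SAL) gave 0 of 33 tests by edgeR (all genes: 1.44% in hypothalamus and 0.0% in hippocampus, PFC and striatum) and 0 by DESeq2, with 3 at an unadjusted p under 0.05; among these Neat1 in hypothalamus had -1.38 ± 0.50 (edgeR adjusted p = 0.114) and Malat1 in hippocampus 0.84 ± 0.24 (0.10), which was 0.34 ± 0.18 (0.638) without the library at 29010 CPM. LPS in control mice (SAL-LPS against SAL-SAL) gave 0 of 33 by edgeR (all genes: 0.246%, 2.55%, 0.0% and 0.0128% in the same order) and 0 by DESeq2, with 2 at an unadjusted p under 0.05, both in hippocampus. Neat1 there had 2.24, 11.8 and 28.8 normalized CPM in SAL-SAL and 14.2, 23.7 and 56.2 in SAL-LPS, at 0.95 ± 0.37 (edgeR adjusted p = 0.136). MOR-LPS against SAL-LPS, the effect of exposure under LPS, gave 0 of 33 by edgeR (all genes: 1.03%, 2.73%, 0.0046% and 0.0%) and 1 by DESeq2, with 6 at an unadjusted p under 0.05. The DESeq2 call was Neat1 in striatum, 2.30 (DESeq2 adjusted p = 0.0112) against 2.29 ± 0.57 by edgeR (0.0747). It was 1.06 without the library with the highest Neat1 and 1.14 without prefix 14, and 0.54 and 0.45 with the oligodendrocyte and with both glial marker levels as terms. In this comparison in striatum 10 of 10 oligodendrocyte markers (median 1.36) and 8 of 8 astrocyte markers (1.33) had positive values, of which 0 passed. In hippocampus 10 of 10 oligodendrocyte (1.39, 1 called) and 7 of 8 microglial markers (1.54, 1 called) were positive, in hypothalamus 10 of 10 oligodendrocyte (1.00) and 9 of 9 astrocyte markers (1.31, 1 called), and in PFC 10 of 10 oligodendrocyte markers (0.90). Neat1 had positive values in the other regions too, 1.54 ± 0.50 in hypothalamus (edgeR adjusted p = 0.0926), 1.10 ± 0.36 in hippocampus (0.0693) and 1.19 ± 0.50 in PFC (0.247). The hippocampus value was 2.07 in females only (edgeR adjusted p = 0.0483) and -0.064 in males only (0.983), and it passed also with library size as the only scaling (1.20), without the sex term (1.24) and without prefix 5, 14 or 17 (1.24 to 1.28). This comparison and that with MOR-SAL share the MOR-LPS libraries.

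The imprinted members, the small nucleolar RNA hosts and Miat passed in no comparison of the main edgeR fit. Calls of members under other fits are counted in the last section, mostly without their names. Over 20 tests each outside sex, the log2 values of Meg3 lay between -0.69 and 0.59 with a lowest edgeR adjusted p of 0.0564, those of Rian between -0.40 and 0.15 (0.106) and those of Mirg between -0.71 and 0.48 (0.375). Both ends for Meg3 came from striatum tests with the MOR-SAL group, which held 1 library at 18890 normalized CPM against 7032 for the next. Meg3 in hippocampus was the nearest to a call. It had 3965, 4542 and 7726 normalized CPM (lowest, median, highest) in SAL-LPS and 1358, 3602 and 4927 in MOR-LPS, with 11 of 16 MOR-LPS libraries below each SAL-LPS library and -0.56 ± 0.17 as log2 difference. Rian in hypothalamus had 875, 1009 and 1308 in MOR-SAL and 500, 833 and 1088 in MOR-LPS, a difference of -0.40 ± 0.16 (edgeR adjusted p = 0.106). The values of Snhg14 lay between -0.47 and 0.33 (lowest edgeR adjusted p = 0.0733), the lowest p being in hypothalamus, where 10 of 14 MOR-LPS libraries were below each MOR-SAL library (medians 804 and 1118, -0.40 ± 0.14). Markers of glia were higher in this comparison, as given above, and their part in the lower values of Rian and Snhg14 is not given here. Snhg11 was the narrowest, from -0.19 to 0.29 (0.636), and Miat ran from -0.56 to 0.47 (0.257). Peg13 in hypothalamus had medians of 87.3 in SAL-SAL, 111 in MOR-SAL, 49.3 in SAL-LPS and 106 in MOR-LPS, and its 5 values ran from -0.50 to 0.25 (0.446). A p that missed the threshold does not show that these levels were alike.

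Partner genes of the members were counted from lists. Of 9 genes for paraspeckle proteins (9 tested in hypothalamus and 8 in each other region, among them Nono and Sfpq, which bind the long Neat1 form), none passed in any comparison or region, where 0.0% to 6.27% of all genes were called. In MOR-LPS against MOR-SAL in hypothalamus (6.27% of all genes) their median log2 fold change was -0.07, 3 of 9 being above 0. Of 14 genes of nuclear speckles (14 and 13 tested) none passed either, beside the same shares of all genes, with a median of 0.18 in that comparison. Among 3 protein-coding genes of the Dlk1-Dio3 domain, Dio3, which inactivates thyroid hormone, passed in hippocampus in SAL-LPS against SAL-SAL (edgeR adjusted p = 0.0472; 2.55% of all genes were called) and in the interaction (0.0118; 2.35%), but its reads were 44 in 1 SAL-SAL library, 14 over 4 MOR-LPS libraries and 0 in all others, so no fold is given. Of 7 genes of the Snrpn-Ube3a domain (5 or 6 tested), Mkrn3 passed in MOR-SAL against SAL-SAL in hypothalamus (edgeR adjusted p = 0.0365; 1.44% of all genes), with 7 reads over 14 libraries against 115 over 11, and in the hippocampus interaction (0.0385), where 1 to 27 reads a group were counted. Snrpn was higher in hypothalamus of males (0.43 ± 0.12; 3.45% of all genes). In 20 other imprinted genes (20 tested in hypothalamus, 17 elsewhere), 2 were lower in MOR-LPS than in MOR-SAL in hypothalamus, where 6.27% of all genes were called, Mest (-0.89 ± 0.24) and Blcap (-0.63 ± 0.20), with a list median of -0.45, 4 of 20 being above 0, against 0.0028 over all genes, and Igf2r was higher in males (0.37 ± 0.10), again beside 3.45% of all genes. Among 14 other small nucleolar RNA hosts (8 to 10 tested), Snhg20 passed in MOR-LPS against MOR-SAL in opposite directions, 0.74 ± 0.20 in hypothalamus (6.27% of all genes) and -1.69 ± 0.36 in hippocampus (0.467%), as well as in the hippocampus interaction (-2.59 ± 0.50); in hippocampus 1 MOR-SAL library had 432 normalized CPM against a group median of 27.7. Among 12 other neural long noncoding RNAs (10 tested), Dleu2 was higher in MOR-LPS than in MOR-SAL in hypothalamus (2.14 ± 0.52) and passed there in the interaction (2.53 ± 0.77; 3.80% of all genes), and Ftx, a regulator of Xist, was higher with MOR-SAL set against SAL-SAL (0.60 ± 0.16), beside 1.44% of all genes. The 4 neighbours of Peg13 passed in none, beside the same 0.0% to 6.27% of all genes. Counts of 0 in lists this short are near those shares and are not read as a result.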

How the data were processed

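Nuclear polyA RNA of sorted NeuN+ nuclei was sequenced after a modified Smart-seq3 preparation with Tn5. Per the labels, the authors trimmed reads with Trim Galore 0.6.7, aligned them to mm10 with STAR 2.7.10a and counted them per gene with HTSeq 0.12.4; DESeq2 1.40.2 is also named. The strand setting is not given in the sources used here. The deposited count tables (raw reads per gene, 1 per region) were used for tests. The deposited CPM tables leave out mitochondrial genes and equal the counts scaled to the remaining total.

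The 9 genes and the lists were chosen with earlier results of these data known. Genes with a total count above 10 in a region were tested with edgeR 4.0.16 (TMM, quasi-likelihood, 4 conditions and sex as terms, Benjamini-Hochberg over all genes tested). All 9 members are named in each comparison; from a list at most 3 called genes with the lowest adjusted p, and for likeness the 3 genes with the highest r. Alternatives used DESeq2 1.42.0, limma 3.58.1 with pseudocounts of 1 and 0.1, other filters, scalings and sexes, and animals of each replicate number prefix left out in turn; glial marker levels as terms and fits without the highest library were added after the data were seen. Positions are from the GENCODE annotation of GRCm38. Scripts were tested on simulated data, where edgeR and DESeq2 made more false calls than the threshold allows. Same-numbered libraries of different regions are taken as the same animal, and in SAL-SAL their deviations over genes had a mean r of 0.0404 over 53 pairs (-0.00199 over 772 pairs of different animals). Per-library totals set the precision; p-values measure the spread between animals, some of which share a litter.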

Additional observations from a re-analysis of the deposited data

Results flagged for a closer look

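The interaction of exposure and LPS was 2.92 for Neat1 in hypothalamus and -1.12 for Malat1 in hippocampus on the log2 scale. Each passed the edgeR test of the difference between the LPS effects in exposed and control mice, but neither call held throughout: without 1 MOR-SAL library the Malat1 value was -0.61 (edgeR adjusted p = 0.218), and with the oligodendrocyte marker level as a term the Neat1 value was 1.24 (0.0974). A library far from the rest was looked for in the 3 groups of 4 to 10 libraries (SAL-SAL and SAL-LPS in PFC, MOR-SAL in striatum) for 8 members each. Of these 24 sets 2 had one, where chance alone gives about 1 in 20; larger groups, that of the hippocampus Malat1 library at 29010 CPM among them, were not checked. One was Neat1 in PFC of SAL-SAL, with a female at 121.0 normalized CPM and the nearest other library at 26.7. The other was Meg3 in striatum of MOR-SAL, with a library at 18890 normalized CPM and the nearest other at 7032.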

How the results depend on the processing

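Counts of called members by comparison moved with the fit, and fits with a similar count are not all listed. In MOR-SAL against SAL-SAL (0 calls) leaving out the sex term or taking females only gave 1. In MOR-LPS against SAL-LPS (0 calls) DESeq2, females only and the fit without the highest Malat1 library each gave 1, and library size as the only scaling, no sex term and a correlation within prefixes each gave 2; leaving out prefixes gave 0 to 1. In SAL-LPS against SAL-SAL (0 calls) both fits with glial marker terms gave 1. In MOR-LPS against MOR-SAL (4 calls) females only, counts summed over prefixes, the prefix as a replicate block, the oligodendrocyte term and the fit without the highest Neat1 library gave 2, males only and limma on log2(CPM + 0.1) gave 1, and both marker terms gave 0; leaving out prefixes gave 2 to 5. Of the 4 calls, DESeq2 kept each. Limma on log2(CPM + 1) kept only Neat1 in hypothalamus and striatum, and the correlation within prefixes only Neat1 in hypothalamus. In the interaction (2 calls) DESeq2, filterByExpr, library size, females only and either highest library left out gave 1, and males only, both other prefix fits, the prefix as a replicate block, both limma fits and both marker fits gave 0; leaving out prefixes gave 1 to 2. Between sexes (1 call) the fit without the highest Neat1 library gave 2 and leaving out prefixes 1 to 2. Between regions (22 calls) all 4 conditions gave 36. The calls between conditions and sexes, and Neat1 in each region for MOR-LPS against MOR-SAL and against SAL-LPS, were followed value by value. Of these, 1 changed its sign: Neat1 in hippocampus, MOR-LPS against SAL-LPS, was -0.064 in males only (edgeR adjusted p = 0.983). The members' summed shares moved by less than their spread under other denominators. Of the 6301 other values of members under the alternatives, which include comparisons discussed above, 402 changed sign, 18 passed a test and 0 did both. Depth limits the low members: the lowest library of hypothalamus had 0 reads of Neat1, Mirg and Peg13, and that of hippocampus 7 of Neat1 and 5 of Mirg. The first part of the replicate number marks no stated unit, and over all genes the estimated correlation of libraries sharing it was near 0, which does not speak of Neat1 alone ( -0.0489 in hypothalamus, -0.00297 in hippocampus, 0.00353 in PFC and 0.0288 in striatum). With it as a replicate block, Neat1 in MOR-LPS against MOR-SAL was 2.35 in hypothalamus (edgeR adjusted p = 0.00144), 1.84 in hippocampus (0.143), 2.73 in PFC (0.000102) and 2.16 in striatum (0.280), its interaction in hypothalamus 2.13 (0.271), Malat1 in hypothalamus 0.52 (0.134) and its interaction in hippocampus -0.72 (0.556). The PFC value passed by DESeq2 and this block and not with counts summed over prefixes (2.26, 0.496).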
